A study of Drosophila melanogaster with 6 samples.

Results

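Eye discs in which the driver sev-GAL4 expressed RNAi directed at Hsromega, a long non-coding RNA, were compared with control eye discs, across all loci measured at a fragment density (FPKM, fragments scaled to transcript length and library size) of 1 or more in either group. Of the 15904 loci with a value, 9891 reached that level, which is 62.2%. The control genotype was w1118 with sev-GAL4 over UAS-GFP, a green fluorescent protein reporter. The RNAi discs carried the same w1118 background, driver and reporter and in addition the hsromegaRNAi transgene. Eye discs were dissected from wandering larvae at the end of larval life, 30 pairs per library, with 2 libraries in each group, and whether these 2 are separate cultures is not stated in the labels. Another group, in which the insertion EP3037 was added to the same driver and reporter to overexpress Hsromega, is used only to set values beside those of the RNAi discs. Its ratios are taken over the same control samples.

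Hsromega is transcribed in nearly all fly cells and is strongly induced by heat shock. Its nuclear transcripts organise the omega speckles, which store hnRNPs and other RNA-processing proteins away from sites of transcription. The driver used here follows the sevenless enhancer, which drives expression in some of the cells behind the morphogenetic furrow of the developing retina. RNA was taken from whole discs, so cells without the driver contributed to every value, and fewer cells of a type cannot be told apart from less RNA per cell.

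Each group is represented by the authors' pooled FPKM, with no value for the separate libraries. No standard deviation could be given, and a difference larger than the spread between libraries is shown here only where the authors' deposited table gives a q-value of 0.05 or less. Such loci are referred to as called, and only these are said to have risen or fallen. Gene values without another unit are FPKM. The p-values behind them measure the spread between libraries that may be technical. Ratios are log2 of RNAi over control after 0.1 was added to each FPKM, which understates the change of low loci. Where an error on the log2 scale is given, it is the size of the log2 fold divided by the deposited test statistic, here called the implied SE. The deposited p-values do not follow from it. Dscam1 and the joined locus of nwk, with log2 ratios of -1.46 and -4.28 and implied SEs of 0.864 and 3.07, both had a p of 5e-05 in the authors' Cuffdiff test.

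The middle of the distribution lay near 0. How the libraries were scaled to each other is not stated, so the part of scaling in that middle was not tested. The median log2 ratio of RNAi over control was -0.04 over the 9891 members, with quartiles of -0.51 and 0.30. The 5th percentile was -1.51 and the 95th was 0.94. Within 1.5-fold of the control lay 66.0% of the members, and within 2-fold 83.5%. Members at least 2-fold lower outnumbered those at least 2-fold higher, with 1187 (12% of members) against 443 (4.48%). At 8-fold, where the log2 ratio is 3, the counts were 71 lower and 82 higher. Members listed at 0 in 1 group pass 8-fold through the threshold and the pseudocount alone. Of these, 53 were at 0 in the RNAi discs and 48 at 0 in the control, and 80 were small RNA loci. Most members, 8883, were at FPKM 1 or more in both groups, while 646 reached it in the control alone and 362 in the RNAi discs alone. Values at the edge of the threshold were those of CG44142 (1.00 in the control, 0.902 with RNAi), CR45048 (1.00 and 0.715) and CG9541 (0.365 and 1.00) just inside, and CR45146 (0.776 and 0.9995), CR43387 (0.160 and 0.9994) and CG34113 (0.9989 and 0.370) just outside.

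**Figure D1:**
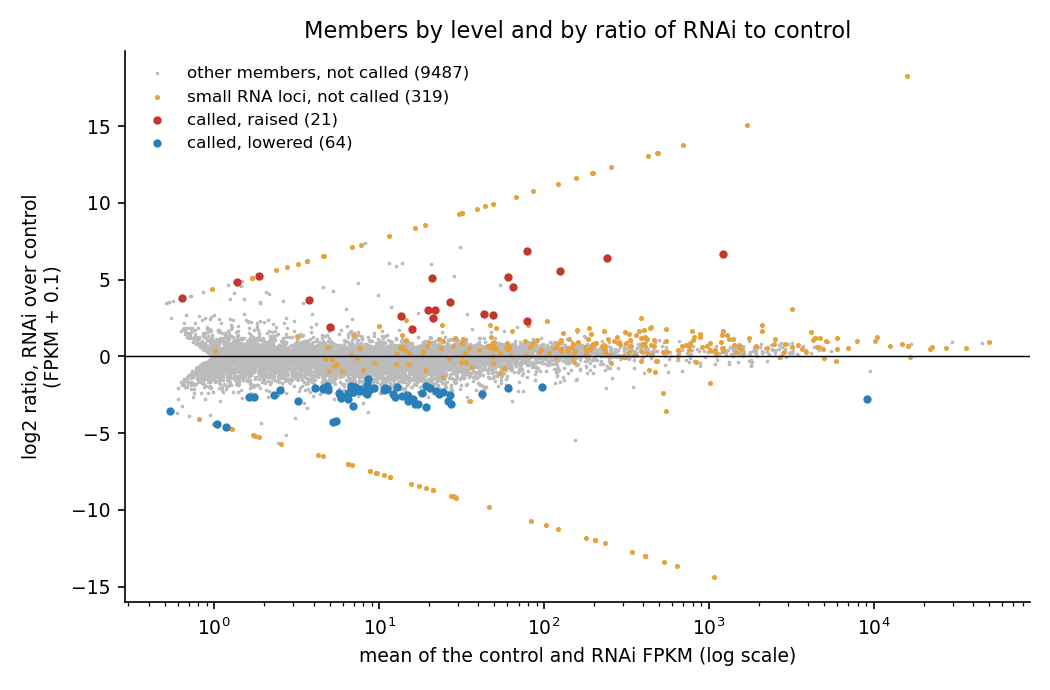
Every member by the mean of its control and RNAi FPKM (x axis, log scale) and by the log2 ratio of RNAi over control (y axis). The 21 called raised loci are red, the 64 called lowered loci are blue, and the small RNA loci (orange) form the outer diagonal lines, which hold loci listed at 0 in 1 group.

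Of the 9889 members that the authors tested, 85 were called, which is 0.86%, against 0.822% of all 11314 loci tested. Raised members numbered 21 (0.212%, and 0.212% of all loci tested) and lowered members 64 (0.647%, and 0.61% of all loci tested). In the comparison of overexpression with the control, the authors' deposited table called 1.2% of the loci tested. Among the members at least 2-fold lower, 64 of 1187 were called, and among those at least 2-fold higher, 21 of 443. The smallest called log2 ratio was 1.46 in size, and the implied SE of called members ranged from 0.778 to 3.07 with a median of 0.957. Smaller ratios were not called at this depth, which does not show that they are absent. With the p-values of the authors' deposited table adjusted again by Benjamini-Hochberg over the tested loci, 14 members were called, 8 raised and 6 lowered. After the trend with transcript length described further on was subtracted, 23 members were called raised and 25 lowered, so the share of raised calls went from 24.7% to 47.9%. The 21 raised members were still called under that setting, as were 19 of the 64 lowered ones. Among them, the 6 called members listed at 0 in 1 group kept their ratios unchanged. So did the 1 raised and 1 lowered member without an annotated length.

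The number of fragments behind a value could be read in part from the lowest FPKM values. In single-transcript loci, the lowest values multiplied by transcript length fell on 2 steps in each group, and 96.7% of such control values and 98.1% of such RNAi values lay within 1% of a step. A step was read as 1 fragment in 1 of the 2 libraries. Eig71Eg had 18 and Jon99Fi 24 estimated fragments in the RNAi discs and 0 in the control, whereas Sgs7 had 112 in the control and 10301 with RNAi. These estimates cover counting only and not the spread between libraries.

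The targeted RNA stood at an FPKM of 202 in the control and 204 in the RNAi discs and was not called, with an implied SE of 2.20, so that the level of the target did not check the labels at the scale of whole discs. In the overexpression discs it stood at 376 and was not called either, with a q-value of 0.758 in the authors' deposited table. Hsromega is transcribed from chromosome arm 3R at 21296127 to 21317836 (dm6), and its longest annotated transcript is 21216 nt. The identity of the tissue was checked against 11 genes of eye disc identity, all of which were members. The 11 were detected in both groups, with levels between 3.99 (lz in the RNAi discs) and 107 (toy in the control). No member of that list was called. All 11 stood lower in the RNAi discs, with a median log2 ratio of -1.31 against -0.04 over all members, and -0.80 after the length trend was subtracted.

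The raised genes were mostly short. The longest annotated transcript of the 21 called raised members had a median of 758 nt, against 1841 nt over all members, and 16 of them were under 2000 nt. Glue proteins, which larval salivary glands secrete to fix the pupal case, gave the largest ratios.

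Of the salivary glue genes, 4 of 6 members rose in the RNAi discs. Of the 10 loci on the list 6 were members, all 6 stood higher, and 4 were called, with a median log2 ratio of 5.97. Sgs7, a small glue protein gene on chromosome arm 3L (11509861 to 11510247, dm6), had 23.8 in control, 2405 in RNAi discs and 52.6 in the overexpression discs, a log2 ratio of 6.65 (implied SE 1.01) for RNAi. Its neighbour Sgs8 (3L, 11508967 to 11509394) was at 5.05, 244 and 9.47 in the same order. Sgs5, on arm 3R (17595362 to 17596112), was at 5.63, 476 and 10.49. CG7587, annotated as Sgs5bis and lying directly beside Sgs5, was at 1.24, 156 and 1.46, with the highest log2 ratio of all called members, 6.87 (implied SE 1.19). In each of these 4 genes the RNAi value was the highest of the 3. Sgs3 and Sgs4 were not called, at 7.74 and 15.6 for Sgs3 and at 4.15 and 30.1 for Sgs4 in control and RNAi discs. Below the threshold were Sgs1, at 0.0647 and 0.324, and ng3, at 0.154 and 0.790, while ng1 and ng2 were listed at 0 in all groups. The summed FPKM of the 6 members was 47.6 in the control, 3327 in the RNAi discs and 80.8 in the overexpression discs. Sgs7 and Sgs8 are related in sequence, so how fragments were shared between them is uncertain. The part of salivary gland tissue in these values was not tested.

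The ecdysone-induced Eig71E genes are a cluster on arm 3L that is switched on in salivary glands around the onset of metamorphosis, and 3 of its 4 members rose. Of the 11 loci on the list 4 were members, all 4 stood higher, and 3 were called, with a median log2 ratio of 4.68. Eig71Eb and Eig71Eg became members through the RNAi discs alone, so the threshold fixed their direction, and both enter that median. Eig71Ee (15654472 to 15656010) had 5.25 in control, 124 in RNAi discs and 3.96 in the overexpression discs. Eig71Eb was listed at 0 in the control and was at 3.74 with RNAi and 0.290 with overexpression. Eig71Eg was listed at 0 in both of the other groups and was at 2.73 with RNAi. Eig71Ea was at 1.26, 11.2 and 0 and was not called. These 3 called genes form 1 of the 2 stretches in which 3 or more called loci of the same direction followed each other with gaps of at most 25 kb, and it spans 8.214 kb. Within the stretch the change was uneven. Eig71Ec, which lies between Eig71Eb and Eig71Ee, was at 0.557 in the control and 0.314 with RNAi, and Eig71Ef, between Eig71Ee and Eig71Eg, was at 0 and 0.142. Eig71Ei and Eig71Ek were listed at 0 in all 3 groups. The same 2 stretches were found with gaps of at most 10 kb and 50 kb.

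Some larval serum and fat body genes, 4 of 9 members, also rose. Of the 13 loci on the list 9 were members, 8 of the 9 stood higher, and 4 were called, with a median log2 ratio of 1.77. Rfabg (0.961 in control and 5.11 in RNAi discs, not called) became a member through the RNAi discs alone, and Yp2 through the control alone. Fbp1, the receptor through which the fat body takes up larval serum protein, had 3.71 in control, 23.4 in RNAi discs and 10.3 in the overexpression discs. Lsp2, a hexamerin stored for metamorphosis, was at 6.29, 36.2 and 16.8. Lsp1gamma, a subunit of the other hexamerin, was at 7.15, 24.6 and 17.5. The locus that joins Fbp2 with CG42847 was at 4.18, 35.3 and 12.3. In each of the 4 the overexpression value lay between the control and the RNAi value. Lsp1alpha (6.01, 20.3 and 11.4) and Lsp1beta (11.9, 29.0 and 18.9) had the same order and were not called. The yolk protein gene Yp2 was the member that stood lower, at 1.204 in the control and 0.283 with RNAi. The summed FPKM of the 9 members was 43.2, 177 and 92.6 in control, RNAi and overexpression discs. The 4 loci below the threshold were Yp1, Yp3, Jhe and CG11395, none of them at 0. The part of fat body tissue in these values was not tested.

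Single raised genes lay outside these families. PGRP-SB2, a peptidoglycan recognition protein gene, had 1.07 in control, 40.6 in RNAi discs and 0.619 in the overexpression discs. It was the 1 call among 11 members of its family, whose median log2 ratio was 0.30, and PGRP-LA was at 2.96 and 8.40 without a call. Obp99b, an odorant-binding protein gene that larval fat body also expresses, was at 11.1, 75.6 and 29.9. The small gene CG34296, which lies near it on arm 3R, was at 3.19, 118 and 7.88. The digestive protease gene Jon99Fi was listed at 0 in the control and was at 1.28 with RNAi and 0.326 with overexpression, and it was the 1 call among 6 Jonah members. CG13033 was at 26.8, 130 and 35.8, CG10126 at 13.1, 85.1 and 32.1, and CG34166 at 4.09, 49.5 and 25.3. CG13840 was at 0.458, 7.10 and 0.211, and CG8785 at 2.08, 7.97 and 2.104. Jon99Fi and CG13840 became members through the RNAi discs alone, so the threshold fixed their direction. The non-coding alphagamma-element:CR32865, a transcript of the heat-inducible 87C region, was at 4.80, 39.1 and 18.1.

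**Figure D2:**
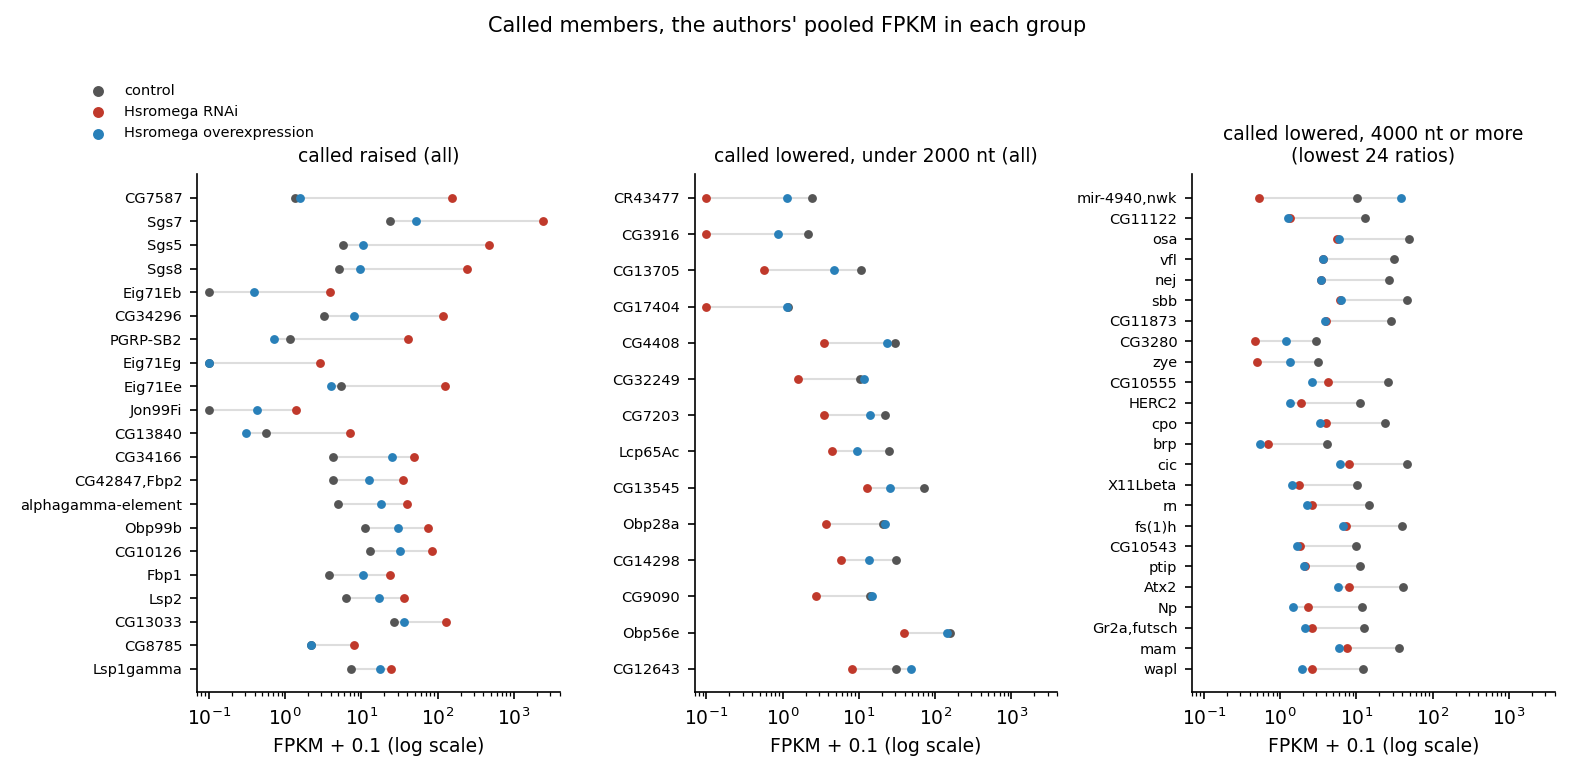
The authors' pooled FPKM plus 0.1 (x axis, log scale) in control (grey), RNAi (red) and overexpression (blue) discs for all 21 raised members, all 14 lowered members with transcripts under 2000 nt, and the 24 lowest ratios among lowered members with transcripts of 4000 nt or more. Among the raised genes Sgs7 lies at 2405 in RNAi discs, and among the long lowered genes osa lies at 5.54 and 5.89 in RNAi and overexpression discs against 48.7 in the control.

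The following members were chosen for their large upward ratios and were not called. IM18, an immune-induced gene, had 0.525 in control, 40.7 in RNAi discs and 9.43 in the overexpression discs (implied SE 2.39). CG42460 was at 0.336, 61.6 and 1.47, and CG31698 at 0.244, 22.7 and 0.667. CG7606 was at 1.37, 55.5 and 1.71. CG14332 (0.310, 27.0 and 30.5) and CG42834 (0.321, 25.02 and 31.9) were instead as high in the overexpression as in the RNAi discs. The implied SE of these genes was between 1.43 and 2.39 on the log2 scale. All of them but CG7606 became members through the RNAi discs alone, so the threshold fixed their direction.

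Most lowered genes had long transcripts. The 64 called lowered members had a median longest transcript of 5750 nt, 41 of them had 4000 nt or more, and 14 had less than 2000 nt. Overexpression over the same control was also called in 37 of the 41, 0 of the 14 and 43 of all 64. Of the 21 raised members, 1 was also called there, against 1.2% of all loci tested. The pattern of long lowered genes is thus not particular to the RNAi discs. The Brahma remodelling complex, which slides and evicts nucleosomes, had 11 members, of which 10 stood lower and 1, osa, fell, with a median log2 ratio of -1.19, or -0.84 after the length trend was subtracted. The ARID subunit gene osa (3R, 17687818 to 17718350) had 48.7 in control, 5.54 in RNAi discs and 5.89 in the overexpression discs. Also on that list, e(y)3 (32.1, 5.84 and 4.68), dalao (36.8, 8.58 and 5.07) and brm (23.2, 6.89 and 6.43) stood lower and were not called. The small subunits Bap55 (61.8, 62.7 and 75.5) and Snr1 (34.9, 29.5 and 32.2) lay close to the control.

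Trithorax group and CBP genes, which keep genes active, had 15 members, of which 12 stood lower and 3 fell, with a median of -1.10, or -0.26 after the length trend was subtracted. The histone acetyltransferase CBP, encoded by nej, had 26.3 in control, 3.37 in RNAi discs and 3.35 in the overexpression discs. The bromodomain gene fs(1)h was at 39.2, 7.19 and 6.55. The Mediator kinase module gene kto was at 14.4, 3.27 and 2.91, and its partner skd, not called, at 23.7, 8.31 and 7.74. Over all 28 Mediator members, of which kto was the 1 call, the median was -0.10.

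Polycomb group genes, which keep genes silent, had 17 members, of which 13 stood lower and 2 fell, with a median of -0.84, or -0.59 after the length trend was subtracted. Psc, a subunit of the complex that compacts chromatin, had 18.04 in control, 4.14 in RNAi discs and 3.56 in the overexpression discs. Su(z)12, a subunit of the histone H3 methyltransferase complex, was at 10.8, 2.78 and 2.24. The catalytic subunit of that complex, E(z), was at 9.91, 9.99 and 9.496. The DNA-binding member pho (47.8, 76.9 and 80.8) and the O-GlcNAc transferase gene sxc (45.8, 66.7 and 71.96) stood higher without a call. The chromodomain gene corto, which interacts with both groups, fell from 13.3 to 3.52, with 3.21 in the overexpression discs. Of NuRD and deacetylase genes 13 of 14 members stood lower and none was called, with a median of -1.02, or -0.36 after the length trend was subtracted. Heterochromatin proteins and the ISWI, INO80 and Tip60 complexes had medians of -0.57 over 11 members and -0.19 over 16, with no call.

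**Figure D3:**
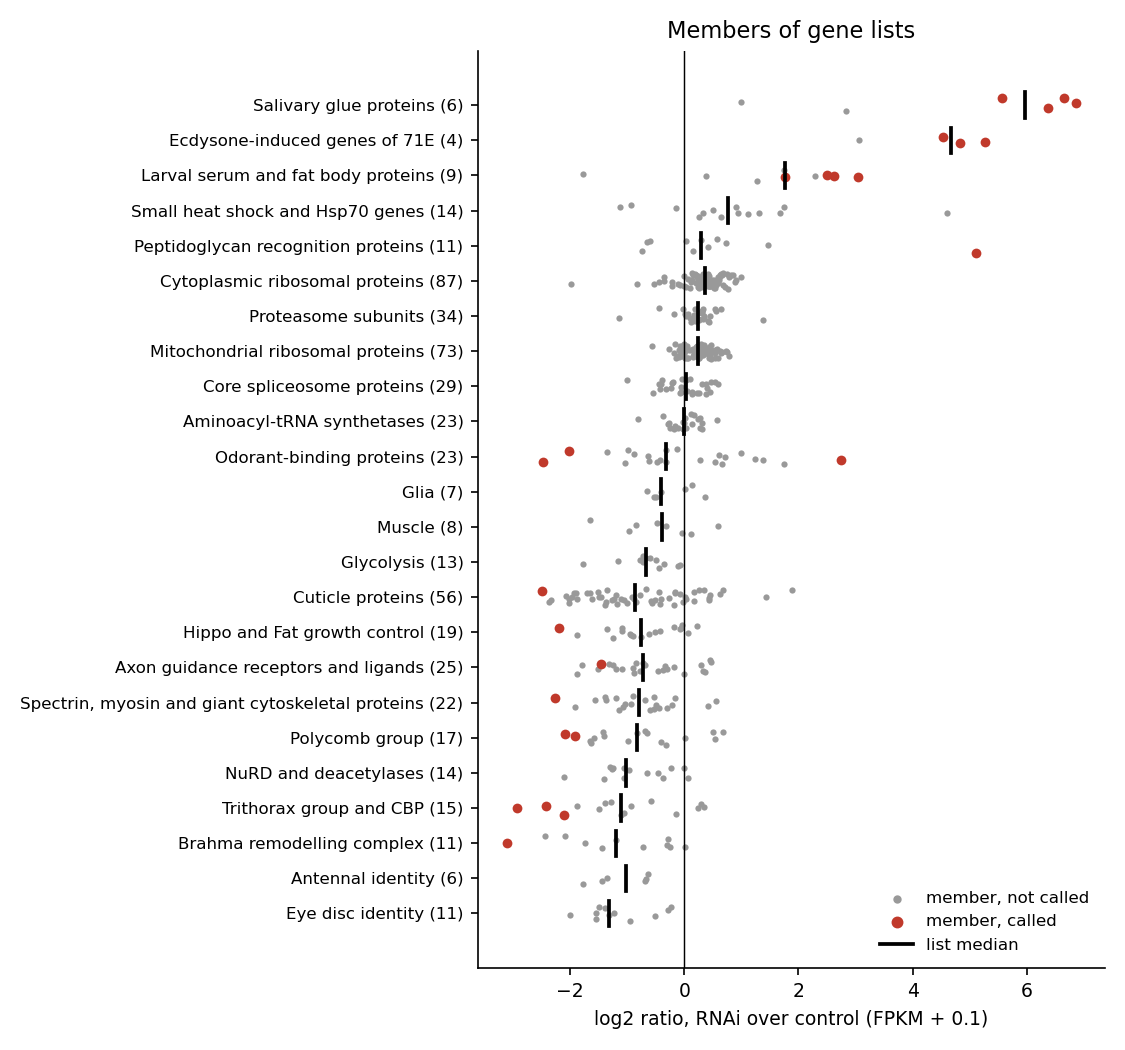
Log2 ratio of RNAi over control (x axis) for each member of 24 gene lists, with the number of members in brackets, called members in red and the list median as a black bar. Glue and Eig71E members lie to the right of 0, as do 8 of 9 fat body members, core spliceosome proteins and tRNA synthetases around 0, and the chromatin and eye disc lists mostly to the left.

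Several DNA-binding regulators of eye development and patterning were among the lowered genes. A list of 23 such genes with long transcripts had 6 calls, all lowered, and a median of -1.72. This list was drawn up from genes already seen to be low in these data, so its count is no independent evidence. Beside osa it held vfl, which encodes the pioneer factor Zelda (30.8 in the control, 3.52 with RNAi and 3.61 with overexpression), and sbb, a nuclear co-repressor (46.0, 6.09 and 6.12). The zinc finger genes rn (14.4, 2.54 and 2.12), disco (11.3, 1.60 and 1.10) and salm (7.48, 1.65 and 1.49) fell as well. Outside that list, the Iroquois homeobox gene mirr, which marks the dorsal eye, was at 11.5, 2.78 and 3.11. The zinc finger gene opa was at 13.7, 3.21 and 2.19. The HMG-box repressor gene cic, which Ras signalling relieves, was at 45.9, 7.81 and 6.03. The Notch co-activator gene mam was at 36.5, 7.52 and 5.89. In these genes the RNAi and overexpression values were close to each other and the control was the highest of the 3.

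The genes of eye disc identity varied in their distance from the control. Among the 11 identity genes, ato, the proneural gene of the founder photoreceptor, had 31.7 in control and 27.0 in RNAi discs, ey had 25.1 and 17.6, and toy had 107 and 87.7. The genes farthest from the control were lz (16.4 and 3.99), Optix (13.8 and 4.66) and dac (24.5 and 8.35), none of which was called. The sevenless receptor gene sev, whose enhancer the driver uses, was at 14.7 and 6.23, without a call. A list for antennal identity, from the other compartment of the same disc, had a median of -1.03 over 6 members, of which all 6 stood lower and none was called. Dll, for example, was at 26.2 and 10.1 and ss at 9.27 and 2.64. That list also held sa (1.42 and 0.858), a testis gene and not one of antennal identity. It became a member through the control alone, so the threshold fixed its direction. At an FPKM of 5 or more, which leaves sa out, the list median was -1.36.

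Genes of RNA metabolism, neurons and signalling were also among the long lowered genes. The RNA-binding protein genes Atx2 (40.7 in the control, 7.99 with RNAi and 5.71 with overexpression) and cpo (23.5, 3.92 and 3.26) fell, as did CG11505, annotated as Larp4B (32.9, 7.77 and 6.67). The cyclin gene CycT, whose product releases paused RNA polymerase, was at 17.7, 3.86 and 3.51, and it was the 1 call among 19 cyclin and Cdk members, whose median was -0.09. The cohesin release factor gene wapl was at 12.1, 2.54 and 1.84, and mxc, which organises the histone locus body, at 6.62, 1.5003 and 1.46. The synaptic active zone gene brp was at 3.99, 0.599 and 0.446. The microtubule-associated protein gene futsch, counted under 1 value with Gr2a, was at 12.7, 2.54 and 2.00. Dscam1, an immunoglobulin receptor of neurite self-recognition with very many isoforms, had the smallest called ratio at 12.6, 4.52 and 4.06, a log2 ratio of -1.46 (implied SE 0.864). It was the 1 call among 25 axon guidance members. Kibra, an upstream activator of Hippo signalling, was at 8.04, 1.68 and 1.86 and was the 1 call among 19 Hippo and Fat members.

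Broader lists of long genes had medians below 0 that moved towards 0 when the length trend was subtracted. Spectrins, myosins and other giant cytoskeletal proteins had a median of -0.80 over 22 members and 0.02 after the length trend was subtracted. Axon guidance genes went from -0.73 to 0.09, adherens junction and apical polarity genes from -0.66 to 0.10, and basement membrane and integrin genes from -0.49 to 0.02. Hippo and Fat genes went from -0.75 to -0.11 and planar cell polarity genes from -0.78 to -0.13. The Brahma, Polycomb and eye disc identity medians kept most of their distance from 0, at -0.84, -0.59 and -0.80.

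A smaller class of lowered genes was short. Of the 14 called lowered members with transcripts under 2000 nt, all 14 were still called after the length trend was subtracted, against 1 of 41 with transcripts of 4000 nt or more. The subtraction moves lowered short transcripts farther from 0 and lowered long ones closer to it. This contrast therefore follows from the direction of the trend and is no independent result. Of the 14, CR43477, CG3916 and CG17404, listed at 0 in the RNAi discs, kept their ratios unchanged. They and CG13705 became members through the control alone, so the threshold fixed their direction. Obp56e, an odorant-binding protein gene, had 156 in control, 38.5 in RNAi discs and 142 in the overexpression discs. Another, Obp28a, was at 20.5, 3.60 and 21.6. The carboxypeptidase-like gene CG4408 was at 29.8, 3.34 and 23.6. The mitochondrial phosphate carrier gene CG9090, annotated as Mpcp1, was at 14.1, 2.62 and 15.0. CG32249 was at 10.3, 1.47 and 11.8, and CG12643 at 30.2, 8.01 and 48.0. In these 6 genes, as in the rest of the 14, the RNAi discs were the lowest of the 3 groups. The larval cuticle gene Lcp65Ac (25.01, 4.34 and 9.23), CG13545 (71.5, 12.7 and 25.4), CG7203 (21.7, 3.43 and 13.8), CG14298 (30.6, 5.73 and 13.4) and CG13705 (10.4, 0.464 and 4.56) were intermediate in the overexpression discs. Obp56e and CG4408 were intermediate there as well. The remaining 3 lie together on arm 3R and are described further on.

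The order of the 3 groups varied among other lowered loci. Mipp1, an inositol polyphosphate phosphatase gene, had 5.75 in control, 0.662 in RNAi discs and 6.43 in the overexpression discs. Unc-89, which encodes the giant sarcomere protein obscurin and is annotated as Obsc, was at 7.71, 1.96 and 6.96. The aminopeptidase gene SP1029 was at 97.7, 23.1 and 40.3. The locus that joins nwk, an endocytic adaptor gene of synapses, with mir-4940 was at 10.1, 0.426 and 38.6, with the widest implied SE of all called members, 3.07. CR40962, a non-coding locus with no match in the annotation, was at 15898, 2281 and 1278, lowest in the overexpression discs, and had the highest level of any called member.

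Odorant-binding protein genes illustrate how members of 1 family went in opposite directions. Of 23 members, 1 rose and 2 fell, 10 stood higher and 13 lower, and the median log2 ratio was -0.31. Obp99b was the gene that rose, and Obp28a and Obp56e were the genes that fell. The most abundant, Obp56a, had 331 in control and 302 in RNAi discs. Obp56d was at 246 and 134, and Obp44a at 86.5 and 137, without calls.

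Cuticle protein genes mostly stood lower. Of 56 members, 43 stood lower and 13 higher, with a median log2 ratio of -0.86, or -1.08 after the length trend was subtracted. Lcp65Ac was the 1 call. At least 2-fold lower were 26 members, among them Lcp4 (114 in the control, 43.9 with RNAi and 47.7 with overexpression), Cpr100A (7.88, 1.86 and 4.45) and Cpr11B (36.1, 9.66 and 58.9). In the other direction, Cpr72Ea was at 1.59, 6.17 and 1.89, and the abundant Cpr49Ac at 240, 324 and 123.

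Glycolysis genes stood lower without a call. All 13 members of glycolysis were lower, with a median log2 ratio of -0.67, or -0.65 after the length trend was subtracted. The aldolase gene Ald had 179 in control, 52.6 in RNAi discs and 104 in the overexpression discs, and the hexokinase gene Hex-A had 13.3, 5.92 and 6.13. The pyruvate kinase gene PyK was at 108, 103 and 109. Citric acid cycle genes had a median of -0.18 over 15 members, and ATP synthase subunits 0.10 over 7, of which 5 stood higher. Of the muscle markers, none was called. The myosin heavy chain gene Mhc was at 191, 60.6 and 194, while the actin gene Act87E was at 52.1, 50.4 and 51.4. Muscle members were lower in 6 of 8 cases with a median of -0.40, and their summed FPKM was 2137 in the control, 1505 in the RNAi discs and 2382 in the overexpression discs. The part of muscle tissue among the discs in these values was not tested.

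Heat shock genes stood higher in 11 of 14 cases, with a median log2 ratio of 0.77 and no call. Hsp70Ba became a member through the RNAi discs alone, so the threshold fixed its direction, and it enters that count and median. Hsp23 had 1911 in control, 3562 in RNAi discs and 2605 in the overexpression discs, and Hsp26 had 364, 696 and 448. Hsp67Bc was at 27.1, 86.7 and 26.0. The crystallin-like gene l(2)efl stood lower without a call, at 160, 83.2 and 176. Of the Hsp70 copies, which are nearly identical so that the division of fragments is uncertain, Hsp70Bb was at 16.3 and 14.7 and Hsp70Ba at 0.0217 and 2.87, without calls.

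Markers of other tissues in or near the disc held 1 call. Haemocyte markers had a median of 0.24 over 6 members and a summed FPKM of 61.0 in the control and 66.1 in the RNAi discs. Glial markers had a median of -0.41 over 7 members, with sums of 165 and 163. Tracheal markers had a median of -0.39 over 6 members, with sums of 435 and 268. Gut markers had sums of 6.74 in control, 5.65 in RNAi and 124 in overexpression discs over 3 members, the last mostly from Jon65Aiii (0.824, 1.48 and 53.96) and Jon65Aiv (0.886, 1.63 and 66.7). Of the brain neuron markers brp alone was called, while nSyb was at 5.23 and 3.84 and Syt1 at 2.02 and 1.86.

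The following housekeeping groups held no call. Aminoacyl-tRNA synthetases had a median log2 ratio of -0.00 over 23 members, none of which lay 2-fold from the control. Core spliceosome proteins had 0.04 over 29 members, with 1 past 2-fold, Cdc5, at 14.9 and 7.38. Proteasome subunits had 0.24 over 34 members, of which 30 stood higher, and mitochondrial ribosomal proteins 0.23 over 73, of which 58 stood higher. Cytoplasmic ribosomal proteins had 0.36 over 87, of which 76 stood higher. After the length trend was subtracted, these last 3 medians were 0.14, 0.02 and 0.14. The locus of RpL23A with Uhg7 was the exception among ribosomal loci with 552 in control and 139 in RNAi discs, without a call, and RpL38 was at the other end at 1175 and 2333.

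The ratio followed transcript length over all members, not only among those called. The median log2 ratio was 0.45 over the 733 members whose longest annotated transcript was under 500 nt, 0.22 from 500 to under 1000 nt, 0.08 from 1000 to under 2000 nt and -0.11 from 2000 to under 4000 nt. It was -0.60 over the 1374 members from 4000 to under 8000 nt, -1.12 over the 216 members from 8000 to under 12000 nt and -1.14 over the 77 longest. At least 2-fold lower were 7.96% of members from 2000 to under 4000 nt, 27.3% of those from 4000 to under 8000 nt and 62.3% of those of 12000 nt or more. The share called lowered was 0.129% from 1000 to under 2000 nt, 1.53% from 4000 to under 8000 nt and 7.79% at 12000 nt or more. Over 8519 protein-coding members with 1 gene per value, Spearman's rho of the ratio across genes was -0.44 with transcript length, -0.44 with coding length, -0.26 with UTR length, -0.37 with genomic span and 0.07 with the control level. Genes within these libraries are not independent replicates, and the cause of the trend was not tested. Members with 17 or more exons had a median of -0.70, and 0.26 after the length trend was subtracted.

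**Figure D4:**
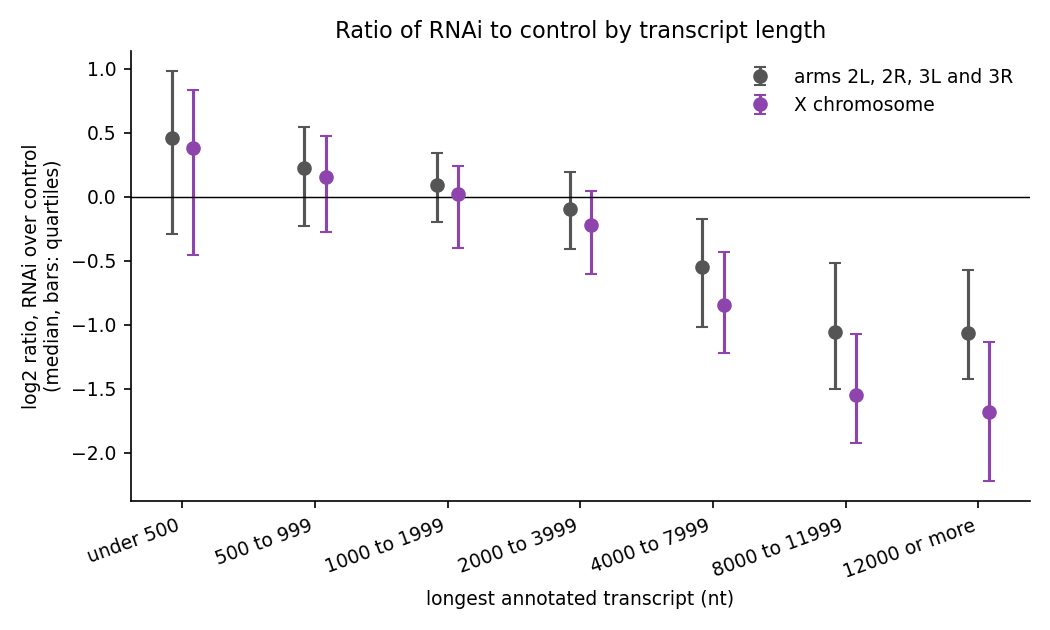
Median log2 ratio of RNAi over control (y axis, bars: quartiles) by class of longest annotated transcript (x axis, nt). The X chromosome (purple) and arms 2L, 2R, 3L and 3R (grey) are shown separately. The medians go from above 0 for short transcripts to -1.07 on these autosome arms and -1.68 on the X at 12000 nt or more.

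Members on the X chromosome stood lower than those on the autosomes. The median log2 ratio was -0.21 over 1592 X-linked members and -0.02 over 8206 members of the major autosome arms, or -0.10 and 0.01 after the length trend was subtracted. At least 2-fold lower were 19.0% of X-linked and 10.8% of autosomal members, and the calls on the X were 16 lowered (1.01% of X-linked members, against 0.585% on the major autosome arms) and 0 raised. The difference in medians was -0.08 among transcripts under 500 nt, -0.29 from 4000 to under 8000 nt and -0.62 at 12000 nt or more, where the X had 23 members. Chromosome 4 had a median of 0.32 over 93 members, or 0.63 after the length trend was subtracted. The roX1 RNA, which coats the male X chromosome, had an FPKM of 173 in control and 214 in RNAi discs, and roX2 had 319 and 671. The sex of the larvae is not given in the labels, and its part in the X values was not tested.

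A stretch of 18.141 kb on arm 3R (12222387 to 12240527, dm6) was nearly silent in the RNAi discs. Of its 10 loci, 8 were listed at 0 in the RNAi discs, none in the control and 1 in the overexpression discs. Called lowered were 6, of which 3 were members. The serine protease-like gene CG3916 had 2.07 in control, 0 in RNAi discs and 0.771 in the overexpression discs. CR43477, an antisense RNA, was at 2.35, 0 and 1.06, and CG17404 at 1.08, 0 and 1.06. CR43477 lies opposite CG12256, and no source used here states whether counting used strand. Pglym87, a paralogue of phosphoglycerate mutase, was at 0.906, 0 and 0.435. By the fragment estimate the whole stretch held 204 fragments in the control, 2 in the RNAi discs and 143 in the overexpression discs. The flanking genes CG4848 (16.2, 16.8 and 15.8) and CG4860 (23.3, 19.9 and 18.5), both on the left, lay close to the control. On the right the nearest loci held few fragments in any group, such as CG3942 with an estimated 4, 1 and 8. The right edge of the stretch could therefore not be placed.

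**Figure D5:**
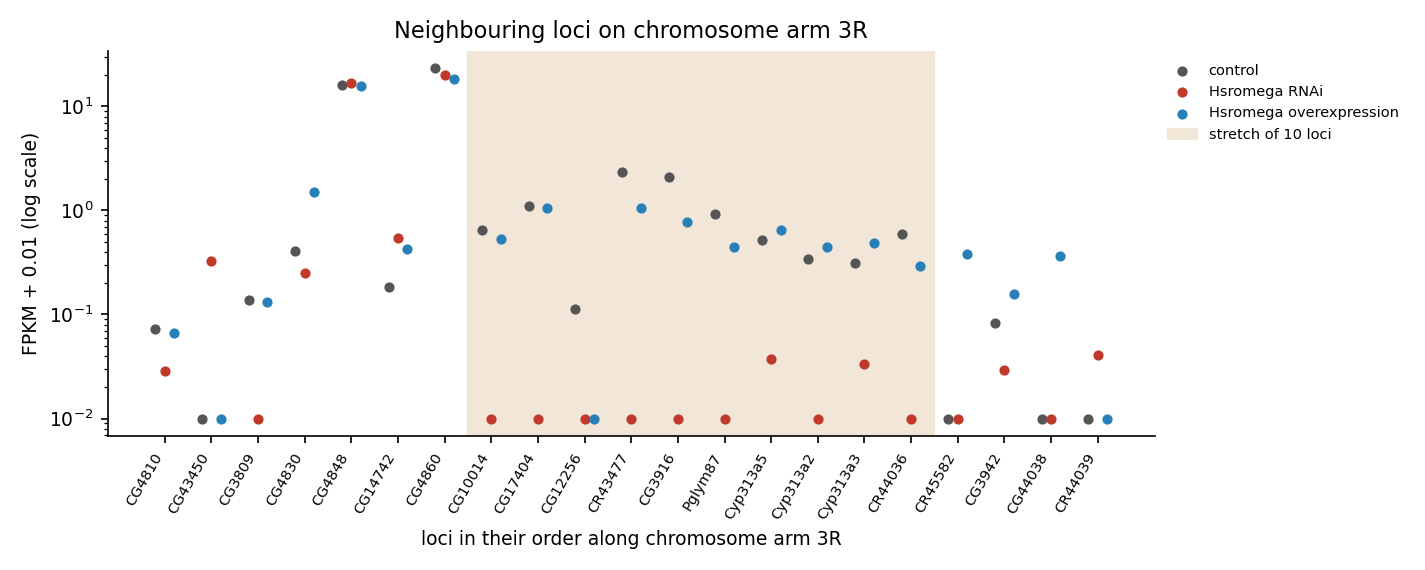
FPKM in control, RNAi and overexpression discs for the loci of the stretch on arm 3R and its flanks, in genomic order. The loci of the stretch lie at or near 0 in the RNAi discs, while CG4848 and CG4860 on its left are at 16.8 and 19.9.

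Small nucleolar and small nuclear RNA loci mostly stood higher, without calls. Small nucleolar RNA loci had a median log2 ratio of 0.59 over 228 members, or 0.08 after the length trend was subtracted, and small nuclear RNA loci 0.65 over 35, or 0.16. MicroRNA loci had -0.32 over 91 members with 1 call, the locus of mir-4940 with nwk. Of the 101 members listed at 0 in 1 of the groups, 80 were small RNA loci, 34 of them at 0 in control and 46 at 0 in RNAi discs. The snoRNA:185 locus was listed at 0 in the control and at 31623 in the RNAi discs without a call, so a listed 0 does not show absence there. Small RNA loci made up 37.97% of the summed FPKM of all loci in the control and 46.7% in the RNAi discs. Other abundant non-coding RNAs stood higher without a call, such as RNaseMRP:RNA, at 20404 and 39367, and RNaseP:RNA, at 6877 and 13427.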

How the data were processed

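RNA of 6 eye disc libraries, 2 per group, was sequenced as paired 50 nt reads on 2 lanes after a stranded total RNA preparation with Ribo-Zero depletion, per the labels' protocols. Cuffdiff 2.1.1, TopHat, Cufflinks, Bowtie and the build dm6 are named, without settings, per the submitters' processing notes, and no source used here states whether counting used strand. The authors deposited 1 FPKM value per locus and group, pooled over libraries. They also deposited a test statistic (a score), p-values and q-values for each comparison, and a 0 or 1 mark of the loci called, per the file headers. The depth of each library is not given.

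Loci at an FPKM of 1 or more in either group were kept, and log2 ratios were taken with a pseudocount of 0.1. No test was run on the pooled values, and calls are the authors' q of 0.05 or less. Transcript lengths came from the Ensembl release 115 annotation of dm6, which matched 99.5% of members. The length trend, a running median over 250 genes on each side, was tested on simulated data. For calls after subtraction, deposited p-values were rescaled to the new ratio and called at the largest p the authors called, 0.00395. Ratios under 0.5 in size kept their p. Called members listed at 0 in 1 group or without an annotated length kept their ratio. Stretches of neighbouring called loci needed 3 or more calls with gaps of at most 25 kb. Of 75 gene lists, 72 had a member and 69 had 3 or more, and lists for Complex I, tRNA and antisense RNA had none. The members and lists were chosen with earlier results of these data known. Named genes were taken from the called members of highest fold, the smallest deposited p per list, the highest control levels, the largest ratios without a call, the stretches of neighbouring calls, and the edge of the threshold, and others were named after their values were seen. Joined loci, 500 of the members, share 1 value among several genes. Python 3.11.15 was used with pandas 2.3.3, numpy 2.4.6, scipy 1.17.1 and matplotlib 3.10.9.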

Additional observations from a re-analysis of the deposited data

How the results depend on the processing

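Members at least 2-fold higher numbered 276 with a pseudocount of 1, 972 with no filter on FPKM and 227 at an FPKM of 5 or more. Members at least 2-fold lower numbered 760 with a pseudocount of 1 and 786 at an FPKM of 5 or more. The deposited p-values adjusted by Benjamini-Hochberg over the tested loci gave 8 raised and 6 lowered members, 14 in all, so the deposited q-values do not rest on the RNAi tests alone. The same q-values recur in the overexpression comparison, such as 0.00144132 for CG11122 in both. The full set of tests behind them is not stated. With the length trend subtracted, a setting chosen after seeing the data like the recentred calls and the arm medians, 25 members were called lowered and 48 in all. Recentring on the median gave 21 raised and 58 lowered. Of 69 list medians, 69 stayed within their tolerance after recentring, 68 with a pseudocount of 0.01, 57 with a pseudocount of 1, 52 without a filter and 26 after the length trend was subtracted, and 52 of 68 did at an FPKM of 5 or more. Medians at least 0.1 from 0 that changed sign to at least 0.1 on the other side were those of gut markers, at -0.96 at an FPKM of 5 or more, and, after the length trend was subtracted, septate junction genes at 0.14, Eip genes at 0.12 and kinesins at 0.14. Others crossed 0 by less or from nearer to it, such as axon guidance genes at 0.09, adherens junction genes at 0.10, basement membrane genes at 0.02, giant cytoskeletal proteins at 0.02, nucleoporins at 0.01 and autophagy genes at 0.17, all after the length trend was subtracted. No paired analysis was possible because each group is pooled to 1 value and the columns carry no replicate. Leaving out a library could not be run for the same reason. The number of libraries limits all calls.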
